A study of Homo sapiens with 6 samples.

Results

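The calcium entry and NFAT genes are 10 genes listed by name: the transcription factor genes NFATC1, NFATC2 and NFATC3, the calcium sensor and channel genes STIM1, STIM2 and ORAI1, the release channel gene ITPR1, the calcineurin genes PPP3CA and PPP3R1, and the calcineurin regulator gene RCAN1. Of the 10, 9 had a probe set carrying their symbol, and STIM1 was not analysed here. Each of the 9 had 1 probe set, so the rule of taking the probe set of highest mean left nothing to choose. They are 9 of the 17687 genes tested. The study measured Jurkat cells, an established T cell leukaemia line (T-ALL) of human origin, on 6 Affymetrix whole-transcript arrays. In 3 samples the cells had been mixed into bovine type I collagen at 1.7 mg/mL, which then set to a gel, and spent 3 h in it (called 3D here). In the other 3 samples, the controls, they stayed in suspension for 3 h. All cells were kept in RPMI medium with fetal bovine serum, and no stimulus of the T cell receptor is named for either group. The samples are called biological replicates 1 to 3 without a statement of what separated them, so p-values measure the spread between these samples, which may be technical. All come from a single cell line.

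In T cells, the antigen receptor makes phospholipase C produce inositol trisphosphate, which opens inositol trisphosphate receptors in the endoplasmic reticulum and empties its calcium store. STIM proteins in the reticulum membrane sense the loss and open ORAI channels in the plasma membrane, and calcium flows in. Calmodulin loaded with calcium activates the phosphatase calcineurin, which strips phosphates from NFAT proteins. These then enter the nucleus and act on cytokine and feedback genes, often beside AP-1 factors. Most of this control acts on proteins and ions, and the arrays measured transcripts only.

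RCAN1 and NFATC1 are themselves known NFAT target genes, each read from several start sites of which some respond to NFAT. The arrays gave 1 value per gene, so levels from separate starts cannot be told apart here. As examples of start sites, the 250 bases before 2 starts of each gene are given, from RefSeq on GRCh38.p14, in the direction of transcription. Whether the probes cover transcripts from these starts was not given in the sources used here. Capitals mark the letters GGAAA, the core that NFAT proteins recognise, and TGACTCA, an AP-1 motif, on either strand (TTTCC and TGAGTCA on the other). No match of one overlapped a match of the other. The NFATC1 windows lie at chr18:79395680-79395929 and chr18:79400049-79400298, both on the plus strand. The RCAN1 windows are those of its most upstream start, at chr21:34615114-34615363, and of an internal start, at chr21:34526823-34527072, both on the minus strand.
NFATC1, upstream start: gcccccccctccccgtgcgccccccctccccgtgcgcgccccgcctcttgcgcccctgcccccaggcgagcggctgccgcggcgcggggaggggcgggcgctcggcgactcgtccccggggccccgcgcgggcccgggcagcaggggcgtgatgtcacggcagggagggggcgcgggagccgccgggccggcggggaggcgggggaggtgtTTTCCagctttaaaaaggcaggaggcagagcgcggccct
NFATC1, downstream start: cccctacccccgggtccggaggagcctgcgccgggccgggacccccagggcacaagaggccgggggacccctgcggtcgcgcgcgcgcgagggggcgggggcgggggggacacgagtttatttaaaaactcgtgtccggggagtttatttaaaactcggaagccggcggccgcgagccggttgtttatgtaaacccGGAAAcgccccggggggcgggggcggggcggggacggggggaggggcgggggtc
RCAN1, most upstream start: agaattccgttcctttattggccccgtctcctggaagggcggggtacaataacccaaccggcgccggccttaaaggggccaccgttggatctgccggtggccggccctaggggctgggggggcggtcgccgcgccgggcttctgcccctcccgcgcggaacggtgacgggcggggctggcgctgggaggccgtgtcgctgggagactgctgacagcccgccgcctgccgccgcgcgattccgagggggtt
RCAN1, internal start: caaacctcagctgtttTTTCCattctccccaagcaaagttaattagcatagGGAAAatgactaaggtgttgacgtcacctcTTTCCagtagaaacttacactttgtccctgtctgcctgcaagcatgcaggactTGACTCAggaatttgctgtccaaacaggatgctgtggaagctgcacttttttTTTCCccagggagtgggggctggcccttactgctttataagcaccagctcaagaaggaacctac
The internal RCAN1 window holds 4 matches of GGAAA and 1 of TGACTCA, while the most upstream one holds 0 of each. Each NFATC1 window holds 1 GGAAA. Of 35116 RefSeq windows of this length, 55.6% hold GGAAA at least 1 time, 1.87% hold it 4 times or more and 4.2% hold TGACTCA. RefSeq windows were matched for 8 of the 10 genes, and 8 of their 18 windows hold GGAAA. Of the 6 RCAN1 windows the internal one shown is the 1 that holds it, and 1 NFATC2 window, not shown, holds it 3 times. ORAI1 and PPP3CA had none. A match is a string of letters and was not measured as a binding site.

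Levels are the log2 values as deposited, so a difference of 1 is a 2-fold change. Array medians lay between 5.55 and 5.64, and correlations between arrays over all genes ran from 0.971 to 0.991. All 13 markers of T cells had mean levels of 6.45 or above, with a median of 9.35. Of 37 markers of other cell types 6 reached 6 (median 4.19, highest 8.28). Precision is limited by the number of arrays, 3 per group. Levels of single genes are not ranked against each other, as probes differ in brightness. Among single genes, limma, two-sided and adjusted by Benjamini-Hochberg over all genes, called 0 of 17687 at an adjusted p under 0.05 (0%), and 0 of the 9 genes described here. An equal-variance test without moderation also called 0. At an unadjusted p under 0.05 limma had 2 of the 9, NFATC1 and ITPR1, where the share of all genes was 9.87%. The equal-variance test had 0 of the 9 at that level, where the share of all genes was 9.05%. The groups overlapped for all 9, while they did not for 16.3% of all genes. The median log2 difference of the 9 was -0.05, with 4 higher and 5 lower in 3D, and that of all genes was -0.02.

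**Figure D1:**
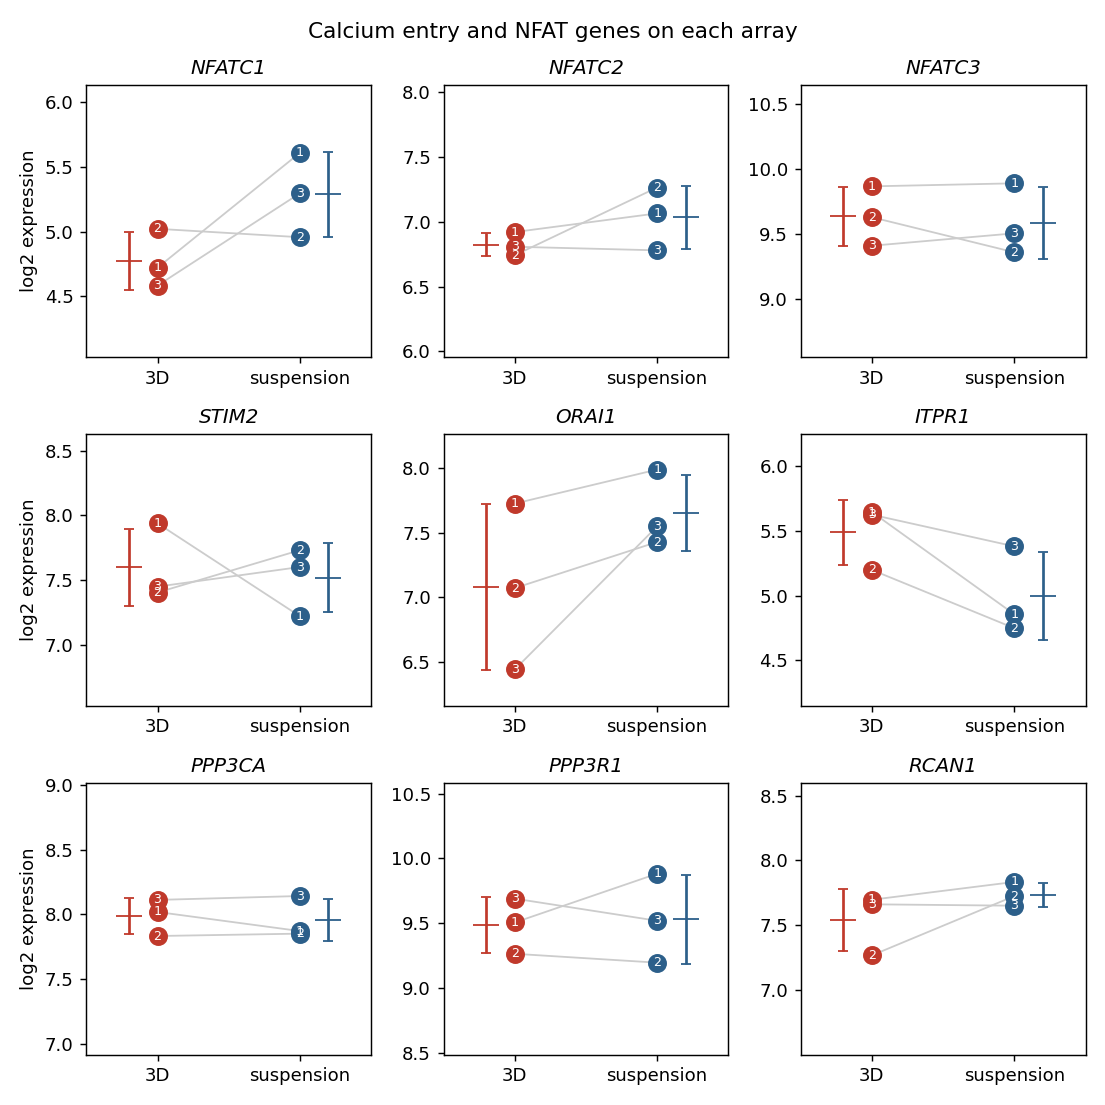
Log2 expression of the 9 measured genes on each array, with 3D arrays on the left and suspension arrays on the right of each panel. Numbers in the points are replicate numbers, grey lines join equal numbers, and the bars beside them are the mean and SD of 3 arrays; all panels have the same height in log2 units. The ORAI1 points of the 3D arrays spread from 6.44 to 7.72, the widest group shown.

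The largest difference among the 9 was that of ORAI1, the pore subunit of the calcium channel in the plasma membrane. ORAI1 measured 7.72, 7.07 and 6.44 in 3D replicates 1, 2 and 3, against 7.99, 7.43 and 7.55 in the suspension replicates of the same numbers. Both replicates numbered 1 were the highest of their group, 3D replicates 2 and 3 lay below every suspension array, and 3D replicate 1 lay inside the suspension range. The means were 7.08 ± 0.64 in 3D and 7.65 ± 0.29 in suspension (SD, n = 3 each). ORAI1 was thus 0.672-fold in 3D, at a log2 difference of -0.57 ± 0.29 (SE), with a 95% interval of -1.21 to 0.06 and an adjusted p of 0.537 in limma. Between same-numbered samples the difference was -0.26, -0.36 and -1.10, so ORAI1 was lower in 3D in each of the 3 pairs and most so in pair 3. Without 3D replicate 3 the difference was -0.26, and without 3D replicate 1 it was -0.90. In bulk samples fewer cells that express a gene and less RNA per cell cannot be told apart.

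With the replicate number as a block in limma, which compares within same-numbered pairs, the SE of ORAI1 was 0.18 and its adjusted p was 0.150. In that fit 0.0905% of all genes passed, and 0 of the 9. The blocked fit had 2 residual degrees of freedom from each gene and 9.78 prior ones from all genes. Limited to the 8342 genes with a mean of 6 or more, it had 2 and 25.0. The SEs in both thus rest mostly on the spread shared by all genes, and less on that of ORAI1 itself. In the limited fit ORAI1 passed, with an adjusted p of 0.0142. It was the 1 gene to pass of the 7 tested there, or 14.3%, where 14.4% of all genes tested passed, so the count was near the background. Without pair 3 ORAI1 did not pass in that fit (difference -0.31, adjusted p 0.383), where 4.87% of all genes did. It passed without pair 1 (-0.73, adjusted p 0.0131, with 5.49% of all genes) and without pair 2 (-0.68, adjusted p 0.00136, with 17.5% of all genes). In the fit without pair 2 all genes were given the same SE, 0.17. In the fit without pair 3 the 7 genes tested also shared 1 SE, 0.19. Neither p therefore measures the spread of ORAI1 itself. With the block and no filter the adjusted p of ORAI1 was 0.135 without pair 1 and 0.111 without pair 2.

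STIM2, a calcium sensor of the reticulum that responds to small losses from the store, had a difference of the opposite sign and near 0. STIM2 measured 7.94, 7.40 and 7.45 in 3D replicates 1, 2 and 3, against 7.22, 7.73 and 7.60 in suspension. The 3D arrays held the highest value, and the other 2 of them lay inside the suspension range. The difference was 0.08 ± 0.20 (SE), with a 95% interval of -0.37 to 0.53 and an adjusted p of 0.911 (limma). By pair it was 0.72, -0.33 and -0.15, so the sign rested on pair 1, and without 3D replicate 1 it was -0.09.

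ITPR1, which encodes a type of inositol trisphosphate receptor, was higher in 3D by more than any other of the 9 that was higher. ITPR1 measured 5.65, 5.20 and 5.62 in 3D replicates 1, 2 and 3, against 4.86, 4.75 and 5.38 in suspension. 3D replicates 1 and 3 lay above every suspension array, while 3D replicate 2 lay below suspension replicate 3. The means were 5.49 ± 0.25 in 3D and 5.00 ± 0.34 in suspension (SD, n = 3 each), which differ by 0.49 ± 0.21 log2 (SE), or 1.41-fold. The 95% interval was 0.04 to 0.95, the unadjusted p 0.0371 and the adjusted p 0.495 in limma, or 0.154 with the block. The pairs differed by 0.79, 0.45 and 0.24, all higher in 3D. ORAI1 and ITPR1 were the 2 of 9 genes with 1 sign in all 3 pairs, where 40.1% of all genes had that. The basis for pairing by number is weak, as numbers 2 and 3 could also be crossed. Crossed, 3D replicate 2 of ITPR1 (5.20) would face suspension replicate 3 (5.38) and be lower. ORAI1 would stay lower in 3D in each pair.

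**Figure D2:**
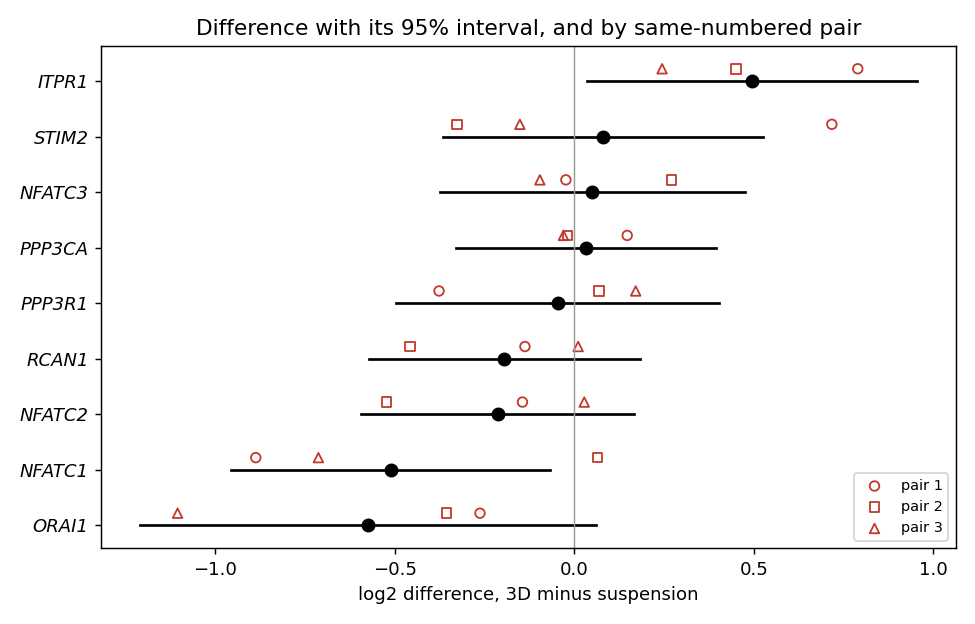
Log2 difference, 3D minus suspension, of the 9 genes (black points) with its 95% interval from limma (black lines), and the difference within each same-numbered pair (open red symbols). Intervals of 7 genes include 0, while those of NFATC1 and ITPR1 do not before adjustment over all genes.

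The NFAT genes differed from suspension by unlike amounts. NFATC1, the NFAT gene best known for regulating its own transcription, measured 4.72, 5.02 and 4.58 in 3D replicates 1, 2 and 3, against 5.61, 4.96 and 5.30 in suspension. 3D replicates 1 and 3 lay below every suspension array, and 3D replicate 2 lay just above suspension replicate 2. The means were 4.78 ± 0.22 in 3D and 5.29 ± 0.33 in suspension (SD, n = 3 each), which differ by -0.51 ± 0.20 log2 (SE), or 0.702-fold. The 95% interval was -0.96 to -0.07, the unadjusted p 0.0279 and the adjusted p 0.463 in limma, or 0.200 with the block. By pair the difference was -0.89, 0.06 and -0.71, so pair 2 did not share the sign. With numbers 2 and 3 crossed, 3D values of 5.02 and 4.58 would face 5.30 and 4.96 in suspension, both lower in 3D. NFATC1 and ITPR1 both had means under 6, the limit set for dim probe sets, so they were left out of the fits with that filter. No background level was measured, and whether these 2 signals lie above it was not tested.

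NFATC2, the NFAT form most tied to resting T cells, measured 6.92, 6.74 and 6.81 in 3D and 7.06, 7.26 and 6.78 in suspension, in the order of replicates 1, 2 and 3. The 3D arrays lay close together, and 1 of them was below the lowest suspension array. The difference was -0.21 ± 0.17 (SE; 95% interval -0.59 to 0.17; limma adjusted p 0.688). NFATC3, which is abundant in thymocytes, measured 9.87, 9.63 and 9.41 in 3D and 9.89, 9.36 and 9.50 in suspension. The 2 groups covered nearly the same range, and both replicates numbered 1 were highest. The difference was 0.05 ± 0.19 (SE; 95% interval -0.37 to 0.48; adjusted p 0.944).

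Both calcineurin genes had differences smaller than the spread between replicates. PPP3CA, the alpha form of the catalytic subunit, measured 8.02, 7.83 and 8.11 in 3D replicates 1, 2 and 3, against 7.87, 7.85 and 8.14 in suspension. It had the narrowest range of the 9 over the 6 arrays, 0.31 log2, and its arrays interleaved. The difference was 0.03 ± 0.16 (SE; 95% interval -0.33 to 0.40; limma adjusted p 0.962). PPP3R1, the calcium-binding regulatory subunit, measured 9.51, 9.26 and 9.69 in 3D, against 9.88, 9.19 and 9.52 in suspension. The 3D values lay wholly inside the suspension range. The difference was -0.05 ± 0.20 (SE; 95% interval -0.50 to 0.40; adjusted p 0.954).

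RCAN1, a calcineurin inhibitor widely used as a readout of calcineurin and NFAT activity, measured 7.70, 7.27 and 7.66 in 3D replicates 1, 2 and 3, against 7.83, 7.72 and 7.65 in suspension. 3D replicate 2 was the lowest array, while 3D replicates 1 and 3 lay inside the suspension range. The means were 7.54 ± 0.24 in 3D and 7.74 ± 0.09 in suspension (SD, n = 3 each), and the difference was -0.19 ± 0.17 (SE; 95% interval -0.57 to 0.18; limma adjusted p 0.715). Without 3D replicate 2 it was -0.06. Which of its starts the probes cover, the internal one with 4 GGAAA included, was not given in the sources used here.

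For 8 of the 9 genes the 95% interval lay within a 2-fold change in either direction, as for 16729 of all 17687 genes, and ORAI1 was the exception, with a lower bound of -1.21. For 4 of the 9 the SD between replicates, pooled over both groups, exceeded the difference itself, as it did for 10803 of all 17687 genes. Those 4 were NFATC3, STIM2, PPP3CA and PPP3R1.

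**Figure D3:**
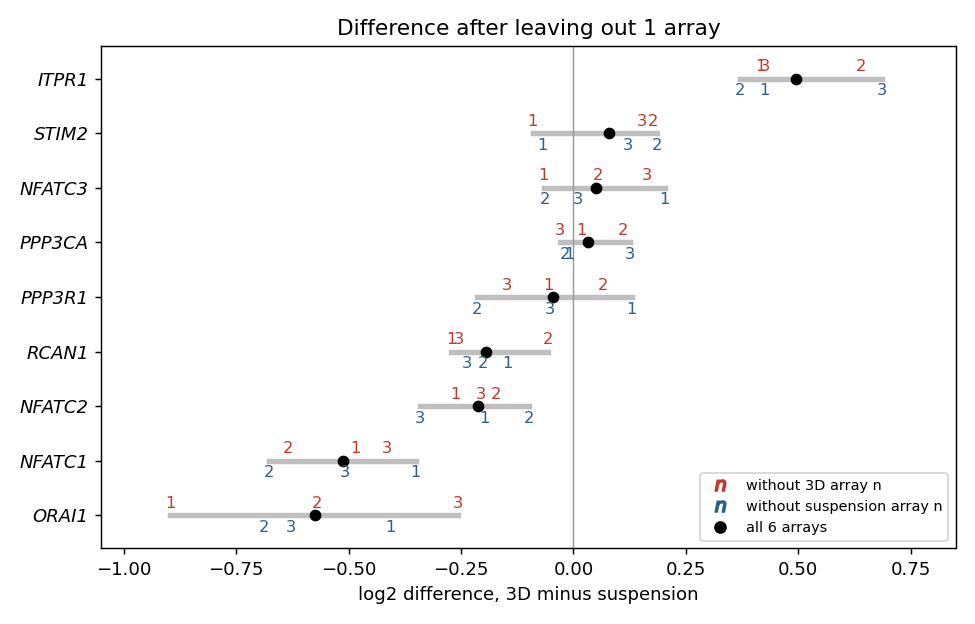
Log2 difference, 3D minus suspension, of each gene with all 6 arrays (black points) and after leaving out 1 array (digits give its replicate number, red above for a 3D array and blue below for a suspension array). ITPR1 stayed between 0.37 and 0.69, NFATC1 between -0.68 and -0.35 and ORAI1 between -0.90 and -0.26, while NFATC3, STIM2, PPP3CA and PPP3R1 crossed 0.

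The genes whose profile over the 6 arrays was most like that of ITPR1 and of NFATC1 were looked up among genes with a mean of 6 or more, by the root mean square difference of log2 values after each gene's own mean was subtracted. Nearest to ITPR1 stood TMEM87B (0.07 log2), MTFR2 (0.08), EIF5B (0.08), AGPS (0.09) and CHD1 (0.10). EIF5B, a translation initiation factor gene, measured 9.03, 8.83 and 9.09 in 3D replicates 1, 2 and 3, against 8.41, 8.36 and 8.88 in suspension, so suspension replicate 3 was the highest of its group as it was for ITPR1. Nearest to NFATC1 stood SCGB3A1 (0.09 log2), BAK1 (0.09), VASP (0.10), KRTAP4-9 (0.10) and GRWD1 (0.10). BAK1, a gene of mitochondrial cell death, measured 7.03, 7.05 and 6.74 in 3D, against 7.72, 7.11 and 7.39 in suspension. These are the closest of 8342 profiles over 6 arrays, and their adjusted p-values in limma ran from 0.427 to 0.582. Among the 9 genes themselves the closest profiles were those of NFATC2 and RCAN1 (0.16 log2), both lowest on 3D replicate 2. Their SDs over the 6 arrays were 0.20 and 0.19, and this measure is small between genes that vary little.

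Partners of store-operated calcium entry were measured for 9 of 10 listed genes, with 6 higher and 3 lower in 3D and a median log2 difference of 0.04. limma called 0 in either direction. ORAI2, a sister channel that can join ORAI1 in mixed pores, measured 6.32, 6.37 and 6.36 in 3D replicates 1, 2 and 3, against 6.69, 6.79 and 6.98 in suspension. The groups did not overlap, as for 16.3% of all genes, and the difference was -0.47 ± 0.16 (SE; adjusted p 0.405). In the blocked fit of genes with a mean of 6 or more ORAI2 passed (adjusted p 0.0229), and with the block alone it did not (0.150). Of the 44 genes from the 7 lists in that filtered fit, 6 passed, or 13.6%, where 14.4% of all genes tested did. These 6, ORAI2, ATP2C1, ATP2B1, GSK3A, MYC and CD69, were thus near the background in number. ORAI3 had 0.04 ± 0.15, SARAF, which damps store-operated entry, 0.13 ± 0.15, SELENOK -0.26 ± 0.21 and ERP44, a chaperone of the reticulum, 0.23 ± 0.18. ORAI3 was picked after its values were seen.

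Genes of inositol trisphosphate signalling and calcium pumps were all measured, 15 of 15, with 7 higher and 8 lower in 3D, a median difference of -0.01 and 0 calls by limma. At an unadjusted p under 0.05 there were 3 higher and 0 lower, where 5.9% of all genes were higher at that level. ITPR2, a second inositol trisphosphate receptor gene, measured 6.14, 6.06 and 5.83 in 3D and 5.21, 5.30 and 5.79 in suspension, without overlap. Its difference was 0.58 ± 0.19 (SE; adjusted p 0.405), while ITPR3, picked after its values were seen, had -0.18 ± 0.22. ATP2C1, a calcium and manganese pump gene of the Golgi, had 0.47 ± 0.16, also without overlap, as for 16.3% of all genes. ATP2B1 and ATP2B4, pumps that clear calcium through the plasma membrane, had 0.52 ± 0.23 and 0.31 ± 0.22. ATP2C1 and ATP2B1 passed in the blocked fit of genes with a mean of 6 or more (adjusted p 0.0235 and 0.0178), where 14.4% of all genes did. With the block alone neither did (0.153 each). The genes of mitochondrial calcium uptake, 9 of 10 measured, had a median of -0.15, with 3 higher, 6 lower and 0 called. MICU2, a gatekeeper of the uniporter, had 0.52 ± 0.28, MCUB, an inhibitory uniporter subunit, 0.31 ± 0.17, SLC8B1, the mitochondrial sodium-calcium exchanger, -0.32 ± 0.17, and LETM1 -0.36 ± 0.20. The groups of MCUB, SLC8B1 and LETM1 did not overlap. In the whole list 1 gene higher and 3 lower in 3D had no overlap, where 16.3% of all genes had none in either direction.

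Calmodulin and calcineurin partners were measured for 9 of 13 genes, with 4 higher, 5 lower, a median of -0.07 and 0 called. PPP3CB, the beta form of the catalytic subunit, measured 8.11, 8.02 and 8.34 in 3D and 7.98, 7.78 and 7.95 in suspension. Its groups did not overlap, as for 16.3% of all genes, with a difference of 0.25 ± 0.16 (SE; limma adjusted p 0.611). AKAP5, which anchors calcineurin, had 0.56 ± 0.34, and RCAN2 and RCAN3, relatives of RCAN1, had 0.40 ± 0.25 and -0.18 ± 0.17. Of 3 other NFAT genes listed, 2 were measured. NFATC4 had -0.35 ± 0.15, with no overlap between groups, as for 16.3% of all genes. NFAT5, which responds to osmotic stress and not to calcineurin, had 0.28 ± 0.22. The mean levels of AKAP5, RCAN2 and NFATC4 were 4.83, 3.76 and 4.75, under the limit of 6. Whether these signals lie above background was not tested.

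NFAT kinases and genes of nuclear exclusion, which undo the work of calcineurin, were all 13 measured, with 7 higher, 6 lower, a median of 0.07 and 0 called. GSK3A, a kinase gene, measured 8.07, 7.71 and 7.62 in 3D and 8.33, 8.11 and 8.25 in suspension, a difference of -0.43 ± 0.17 (SE; limma adjusted p 0.478). It passed in the blocked fit of genes with a mean of 6 or more (adjusted p 0.0374), where 14.4% of all genes did, and not with the block alone (0.186). XPO1, the exportin gene, had 0.41 ± 0.18, CSNK1D, a casein kinase gene, -0.30 ± 0.16, and HOMER3, which competes with calcineurin for NFAT, -0.41 ± 0.24. The groups of GSK3A, XPO1 and CSNK1D did not overlap. In the whole list 1 gene higher and 3 lower in 3D had no overlap, where 16.3% of all genes had none in either direction.

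NFAT target genes of T cells were measured for 20 of 25 listed genes, with 10 higher, 10 lower, a median of 0.00 and 0 called by limma. The mean level reached 6 for 4 of the 20, and the median level of the list was 3.60, under the 4.19 of the markers of other cell types. Whether most of these targets, IL2 and IL4 among them, lay above background was not tested. At an unadjusted p under 0.05 there were 0 higher and 2 lower, where 3.97% of all genes were lower at that level. MYC, a growth regulator and the target with the smallest p, measured 9.72, 9.47 and 9.44 in 3D and 10.03, 10.00 and 10.26 in suspension. The groups did not overlap, and the difference was -0.55 ± 0.16 (SE; adjusted p 0.385, or 0.0111 in the blocked fit of genes with a mean of 6 or more and 0.123 with the block alone). IL4, IRF4 and BATF3 had -0.34 ± 0.15, -0.35 ± 0.18 and -0.29 ± 0.16, and the groups of IL4 and BATF3 did not overlap either. In the whole list 0 genes higher and 5 lower in 3D had no overlap, where 16.3% of all genes had none in either direction. CD69, an early activation marker picked after its values were seen, measured 5.28, 6.85 and 7.01 in 3D replicates 1, 2 and 3, against 4.37, 6.37 and 6.26 in suspension. Replicate 1 was the lowest in both groups, and each 3D array lay above the suspension array of its number, by 0.91, 0.48 and 0.75. The difference was 0.72 ± 0.54 (SE; limma adjusted p 0.668). In the blocked fit of genes with a mean of 6 or more, where 14.4% of all genes tested passed, CD69 passed (adjusted p 0.00214). It reached the limit of 6 through the 3D group, with means of 6.38 in 3D and 5.67 in suspension, and with the block alone its adjusted p was 0.0802. IL2, the classic NFAT target and also picked after its values were seen, measured 2.90, 2.67 and 3.33 in 3D and 2.58, 2.76 and 2.59 in suspension, with a difference of 0.32 ± 0.19.

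**Figure D4:**
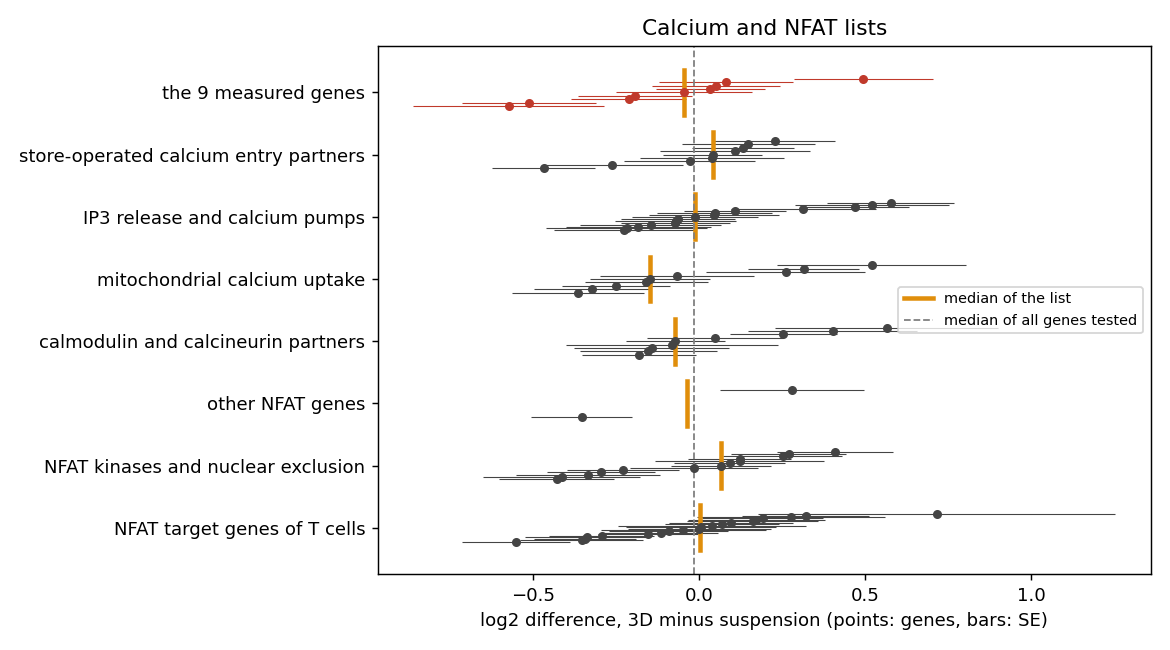
Log2 difference, 3D minus suspension, of each measured gene (points, bars are SE) in the 9 genes described here and in 7 lists of related genes. Orange bars are list medians, which ran from -0.15 for mitochondrial calcium uptake to 0.07 for NFAT kinases, and the dashed line is the median of all genes tested, -0.02.

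Other measures also differed between the 3D and suspension arrays. The 13 T cell markers had a median log2 difference of -0.21, with 9 lower and 4 higher, and their mean level ran from 8.94 to 9.26 in 3D arrays and from 9.16 to 9.30 in suspension arrays. Over all genes the median difference was -0.07 in group 2 of 5 equal groups by gene span, where ORAI1 lies, and 0.06 in group 5, that of the longest spans, where ITPR1, NFATC1, NFATC2, NFATC3, STIM2, PPP3CA and RCAN1 lie. The part of either in the differences of single genes was not tested.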

How the data were processed

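RNA from 6 Jurkat samples, 3 in collagen (3D) and 3 in suspension, was measured on 1 array each. The authors deposited log2 values, 1 per probe set and array, made with RMA and the Transcriptome Analysis Console, per the submitters' processing notes. Versions, probe annotation and genome build are not given in the sources used here. Summarising by RMA shrinks differences of dim probe sets and removes shifts of the whole transcriptome. There were 0 columns of other per-sample values.

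GEO's platform annotation gave 1 symbol for 17709 of the 21448 probe sets, several for 0 and none for 3739. For 20 genes with over 1 probe set the highest mean was kept, which left 17687 genes, all matched to RefSeq (GRCh38.p14) by gene identifier for chromosome and span. Sample titles gave the groups and replicate numbers. limma 3.58.1 in R 4.3.3 (lmFit, eBayes, 4 residual and 6.79 prior degrees of freedom) was run without a block or filter, adjusted by Benjamini-Hochberg over the 17687 genes, threshold 0.05. Alternatives were the replicate block, a mean of 6 or more, renormalization, another probe set, all probe sets, an intensity trend, no moderation and leaving out arrays. Plots used matplotlib 3.10.9.

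The genes described and the lists, 89 genes in 7 lists with 77 measured, were chosen with earlier results of these data known. Named were the 9 genes, up to 4 of smallest p per list, and the 5 genes most like ITPR1 and NFATC1, the genes of smallest p in each direction.

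The deviations of arrays from their group mean had correlations of 0.521 between the arrays numbered 1, 0.120 between those numbered 2 and 0.337 between those numbered 3. All exceeded 0.1, so same-numbered samples were treated as pairs in the fits with the block and in the differences by pair. The main fit, with its differences, intervals and p-values, had no block. The basis for pairing, these correlations, came from the same arrays that the blocked fits then used. This basis is weak, since crossing numbers 2 and 3 also gave values over 0.1 (0.149 for 3D 2 and suspension 3, 0.230 for 3D 3 and suspension 2). Degrees of freedom with the block were 2 residual and 9.78 prior, or 2 and 25.0 with the filter.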

Additional observations from a re-analysis of the deposited data

How the results depend on the processing

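Of the 9 genes, ITPR1, NFATC1, NFATC2, ORAI1 and RCAN1 kept their sign in every alternative that tested them, and NFATC3, STIM2, PPP3CA and PPP3R1 did not. Only leaving out arrays or pairs and renormalization could move the sign, as the other alternatives left the differences of the 9 genes unchanged. After leaving out 1 array, without the block, NFATC3 ran from -0.0657 to 0.20, STIM2 from -0.0909 to 0.19, PPP3CA from -0.0290 to 0.13 and PPP3R1 from -0.21 to 0.13. After quantile normalization once more, with or without the block, NFATC3 stood at -0.00635 and PPP3CA at -0.0274, so 2 of the 9 were higher and 7 lower, against 4 and 5 as deposited. With the replicate block and without pair 1, with or without the filter at 6, STIM2 had -0.24, PPP3CA -0.0243 and PPP3R1 0.12, and without pair 2 NFATC3 had -0.0596. The cause was not tested.

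Over all genes limma called 16 with the replicate block, 21 without pair 1, 150 without pair 2 and 36 without pair 3, and 0 with the block after quantile normalization. With the block and a mean of 6 or more it called 1199, against 458 without pair 1, 1457 without pair 2 and 406 without pair 3, while the filter alone gave 0. Of the 9 genes, 1 was called with the block and the filter (ORAI1), 1 without pair 1, 1 without pair 2 and 0 without pair 3, and 0 in every other alternative. The adjusted p of ORAI1 ran from 0.00136 to 0.921 over its alternatives, that of NFATC1 from 0.0509 to 0.870 and that of ITPR1 from 0.154 to 0.870. Without the filter the block changed no call among the 9. Depth does not apply to arrays, and the level over background was not used here.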
